A study of Mus musculus with 8 samples.

Results

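The genes described here are 6 interferon-linked genes of ADP-ribosylation, Parp9, Parp10, Parp11, Parp12, Parp14 and the ubiquitin ligase gene Dtx3l, together with the DNA-repair enzymes Parp1 and Parp2. They were taken by gene symbol, 8 of the 54752 genes in the count tables. All 8 passed the filter on low counts. The data are RNA-seq counts from the right cerebral cortex of adult male wild-type C57BL/6 mice, 3 weeks after surgery, with 1 mouse per library. In the 4 BCAS mice, a microcoil was placed around each common carotid artery to lower blood flow, the narrower one on the right. The 4 sham mice went through the operation without coils. Each library holds RNA from all cell types of the cortex, so fewer cells of a type and less RNA per cell cannot be told apart.

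PARP enzymes transfer ADP-ribose from NAD onto proteins and nucleic acids. PARP1 and PARP2 are switched on by DNA breaks and build chains of ADP-ribose that recruit repair proteins. Most of the interferon-linked enzymes add single ADP-ribose units or bind them through macrodomains, and many respond to interferon. PARP9 works as a pair with the ubiquitin ligase DTX3L.

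Interferon acts on its target genes through short motifs near their start sites, so the start regions were compared first. RefSeq promoter windows on GRCm38.p6, from 250 bases before to 50 bases after the start site, were found for 5 of the 8 genes. Parp9, Parp10 and Parp14 were not matched. Each window was searched on both strands for GAAA followed by any 2 bases and a second GAAA, the core of the interferon-stimulated response element, and for TTCNNNGAA, the gamma-activated site. Among all 32851 promoter windows of 27025 genes, 3.44% held the first motif and 8.3% the second. The windows shown are those of 2 genes whose RNA rose (Dtx3l and Parp12), of Parp11 and of Parp1, and capitals mark the motif matches.
Dtx3l, chr16:35938978-35939277, minus strand: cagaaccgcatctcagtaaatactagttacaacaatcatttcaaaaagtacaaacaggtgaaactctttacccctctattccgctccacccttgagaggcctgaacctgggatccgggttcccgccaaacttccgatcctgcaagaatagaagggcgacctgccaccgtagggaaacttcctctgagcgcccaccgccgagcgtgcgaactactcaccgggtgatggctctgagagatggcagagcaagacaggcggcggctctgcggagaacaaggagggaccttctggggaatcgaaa
Parp12, chr6:39118300-39118599, minus strand: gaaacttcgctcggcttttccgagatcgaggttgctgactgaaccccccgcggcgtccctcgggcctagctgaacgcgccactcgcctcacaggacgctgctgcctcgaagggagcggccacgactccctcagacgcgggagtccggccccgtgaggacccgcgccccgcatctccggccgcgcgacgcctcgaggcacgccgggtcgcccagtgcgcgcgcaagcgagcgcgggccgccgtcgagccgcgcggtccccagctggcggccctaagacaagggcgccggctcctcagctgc
Parp11, chr6:127446590-127446889, plus strand: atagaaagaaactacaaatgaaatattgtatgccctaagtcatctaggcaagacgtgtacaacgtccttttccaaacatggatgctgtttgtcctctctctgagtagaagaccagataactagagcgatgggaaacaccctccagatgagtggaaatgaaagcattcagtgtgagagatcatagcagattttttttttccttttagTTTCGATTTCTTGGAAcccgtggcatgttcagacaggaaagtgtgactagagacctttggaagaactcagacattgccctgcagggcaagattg
Parp1, chr1:180568641-180568940, plus strand: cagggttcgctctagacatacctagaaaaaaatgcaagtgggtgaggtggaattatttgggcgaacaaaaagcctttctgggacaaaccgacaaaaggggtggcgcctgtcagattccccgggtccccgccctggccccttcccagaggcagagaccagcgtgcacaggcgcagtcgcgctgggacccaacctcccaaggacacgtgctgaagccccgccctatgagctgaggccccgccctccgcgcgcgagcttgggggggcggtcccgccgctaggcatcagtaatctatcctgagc
Matches were found only in the upstream of the 2 Parp11 windows. The response element core lay on the opposite strand, 44 bases before the start site, and the gamma-activated site began 37 bases before it, the matches sharing 3 bases. No match was found in the windows of Dtx3l, Parp12, Parp1, Parp2 and the downstream Parp11 start, which says only that these letters are not in those 300 bases. The Dtx3l window is built on a RefSeq start 124 bases away from the gene start used in the counts. GC content was 73.7% in the Parp12 window, 62% in that of Parp1, 60% in that of Parp2 and 54.3% in that of Dtx3l. It was 42% and 59% in the upstream and downstream Parp11 windows, and the median of all promoter windows was 52.7%.

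The libraries held 16759364 to 21794435 counts, and a count of 0 allows up to 0.132 to 0.187 CPM, the counts scaled to the TMM-normalized library size. Of 17136 tested genes, 1877 were called higher in BCAS mice, 11.0%, and 220 lower, 1.28%. With 1 library left out in turn, 86 to 559 genes were called lower, 86 without Sham 1 and 559 without BCAS 2. A gene was called at an adjusted p under 0.05 by edgeR's quasi-likelihood test and an absolute log2 fold change above 1. Summed CPM of 12 neuronal markers was 10800 to 12500 in sham and 4350 to 9230 in BCAS libraries, with 9 of the 12 lower at an adjusted p under 0.05 (edgeR), against 12.8% of all tested genes, and 1 past the fold threshold too. Libraries of the same group did not sit equally: BCAS 1 stood farthest from sham and BCAS 2 nearest to it in this neuronal sum. The summed choroid plexus markers reached 792 CPM in Sham 3, against 16.2 to 52.3 CPM in the other sham libraries.

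Of the 8 genes, 5 rose in the BCAS cortex past both thresholds: Parp14, Parp9, Dtx3l, Parp10 and Parp12, against 11.0% of all tested genes. Their mean increases ran from 3.26-fold for Parp12 to 10.01-fold for Parp14. Parp2 rose by 1.41-fold, below the fold threshold, and Parp1 and Parp11 did not pass the test. The same 5 genes were called under all 17 alternative fits, which include leaving out each library in turn. Every BCAS library lay above every sham library for these 5 genes and for Parp2, an arrangement seen in 18.5% of all tested genes.

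**Figure D1:**
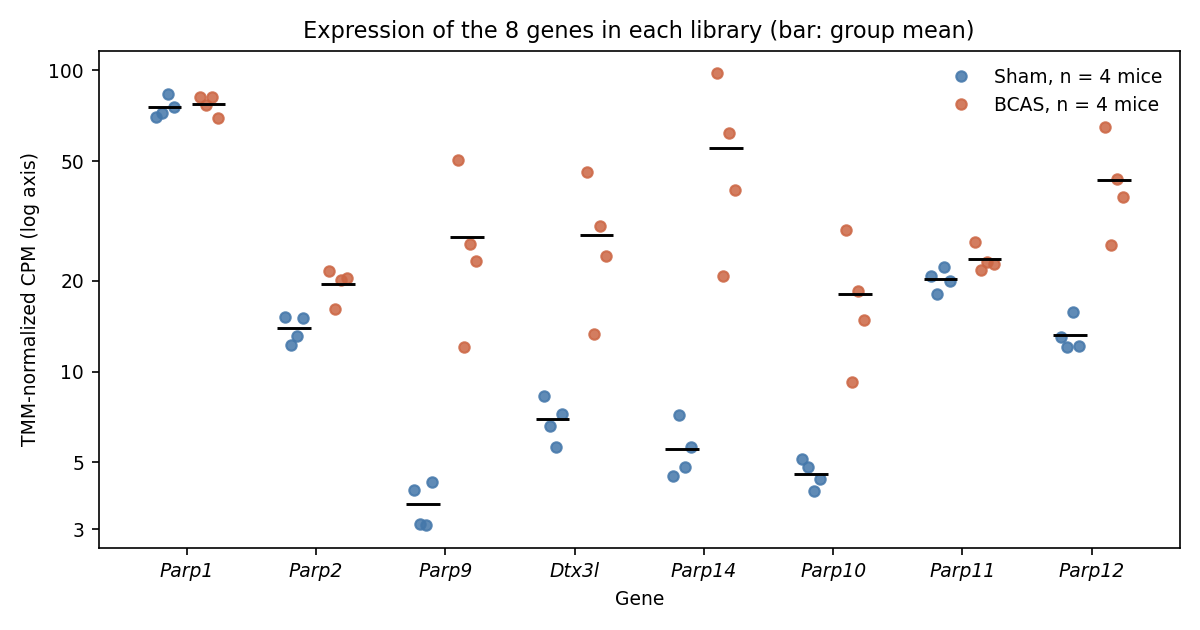
Expression of each of the 8 genes in CPM (log axis) by library, with points for the 4 sham and 4 BCAS mice and short lines for the group means. In Parp9, Dtx3l, Parp14, Parp10 and Parp12 the groups lie apart and BCAS 1 is highest and BCAS 2 lowest of the BCAS mice, whereas the groups of Parp1 and Parp11 overlap.

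The DNA-repair enzymes were examined first, as the members outside the interferon response. Parp1 (ENSMUSG00000026496.11, chr1:180568924-180601254 on mm10) encodes the main DNA-break-activated PARP. Its level was 70.1, 72.1, 83.7 and 75.4 CPM in Sham 1 to 4 and 81.5, 76.7, 81.4 and 69.4 CPM in BCAS 1 to 4. The groups overlapped, with means of 75.3 ± 5.97 and 77.3 ± 5.68 CPM (SD, n = 4 each). The log2 fold change was 0.04 (95% interval -0.16 to 0.23, edgeR adjusted p = 0.765). Parp2 (ENSMUSG00000036023.6, chr14:50807841-50821301) encodes a second break-activated enzyme that shares part of the work of PARP1. It was measured at 15.1, 12.3, 13.2 and 15.03 CPM in sham and at 21.6, 16.2, 20.2 and 20.4 CPM in BCAS libraries. All 4 BCAS values lay above all 4 sham values. The log2 fold change of Parp2 was 0.50 (SE 0.13, 95% interval 0.21 to 0.78, edgeR adjusted p = 0.0199). This adjusted p became 0.0610 without Sham 2, 0.0544 without BCAS 3 and 0.0534 without BCAS 4, and ranged from 0.0024 to 0.0610 over the 17 alternatives.

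Parp9, Dtx3l and Parp14 lie side by side on chromosome 16. Parp9 (ENSMUSG00000022906.15, chr16:35938470-35972605, plus strand) encodes a macrodomain protein that binds ADP-ribose and partners DTX3L. Its level was 4.04, 3.12, 3.09 and 4.28 CPM in the sham libraries and 50.5, 12.1, 26.5 and 23.3 CPM in BCAS 1 to 4. Every BCAS value lay well clear of the sham range, and the BCAS values themselves spread widely. The means were 3.63 ± 0.618 and 28.1 ± 16.2 CPM (SD, n = 4 each), with a log2 fold change of 2.95 (SE 0.40, edgeR adjusted p = 0.00254). Dtx3l (ENSMUSG00000049502.17, chr16:35926511-35939151, minus strand) encodes an E3 ubiquitin ligase of the Deltex family. It was measured at 8.30, 6.61, 5.61 and 7.24 CPM in sham and at 45.9, 13.3, 30.4 and 24.2 CPM in BCAS libraries. The order of the BCAS libraries was that of Parp9, and again the groups did not overlap. The log2 fold change was 2.04 (SE 0.34, edgeR adjusted p = 0.00458).

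Parp14 (ENSMUSG00000034422.14, chr16:35832874-35871544, minus strand) encodes a large enzyme with macrodomains that adds single ADP-ribose units and takes part in STAT6 signalling. Its level was 4.49, 7.18, 4.81 and 5.61 CPM in sham and 97.7, 20.8, 62.1 and 40.1 CPM in BCAS libraries. It showed the largest change of the 8 genes. The means were 5.52 ± 1.20 and 55.2 ± 33.0 CPM (SD, n = 4 each), and the log2 fold change was 3.32 (SE 0.44, edgeR adjusted p = 0.00246). Parp9 and Dtx3l are arranged head to head, with start sites 681 bases apart, and share 458 exon bases, 9.4% of those of Parp9 and 8% of those of Dtx3l. Read pairs that fell on both genes were not counted for either, and the counting gave no strand. Parp14 lies 54966 bases from Dtx3l and shares 110 exon bases, 1.18% of its own, with Gm49730.

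The neighbourhood of this locus was examined next. Within 500 kb on either side, 11 genes were tested and 3 were called higher, namely Parp14, Dtx3l and Parp9. The window was centred on the Dtx3l gene start, so these 3 members lay in it by choice. None of the other 8 was called, near the background of 11.0% higher and 1.28% lower over all tested genes. Their median log2 fold change was 0.06. Hspbap1, the nearest tested gene beyond Parp14, changed by 0.20 on the log2 scale (SE 0.17, edgeR adjusted p = 0.393). Kpna1, a nuclear import receptor gene next to Parp9, fell by 0.44 on the log2 scale (SE 0.13, edgeR adjusted p = 0.0315). Pdia5, at the edge of the window, rose by 0.98 on the log2 scale (SE 0.28, edgeR adjusted p = 0.0286), below the fold threshold. Single genes beside the other members were called higher as well, as were 11.0% of all tested genes. They were Tep1 next to Parp2 with a log2 fold change of 2.16, Tbxas1 next to Parp12 with 3.54 and Cracr2a next to Parp11 with 1.02 (edgeR adjusted p = 0.00625, 0.00187 and 0.0230). Plec, beside Parp10, fell by 0.34 on the log2 scale (edgeR adjusted p = 0.0319). The other neighbours, Stum, Lin9, Ttc5, Grina, Gm7308 and Kdm7a, did not pass the test.

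**Figure D2:**
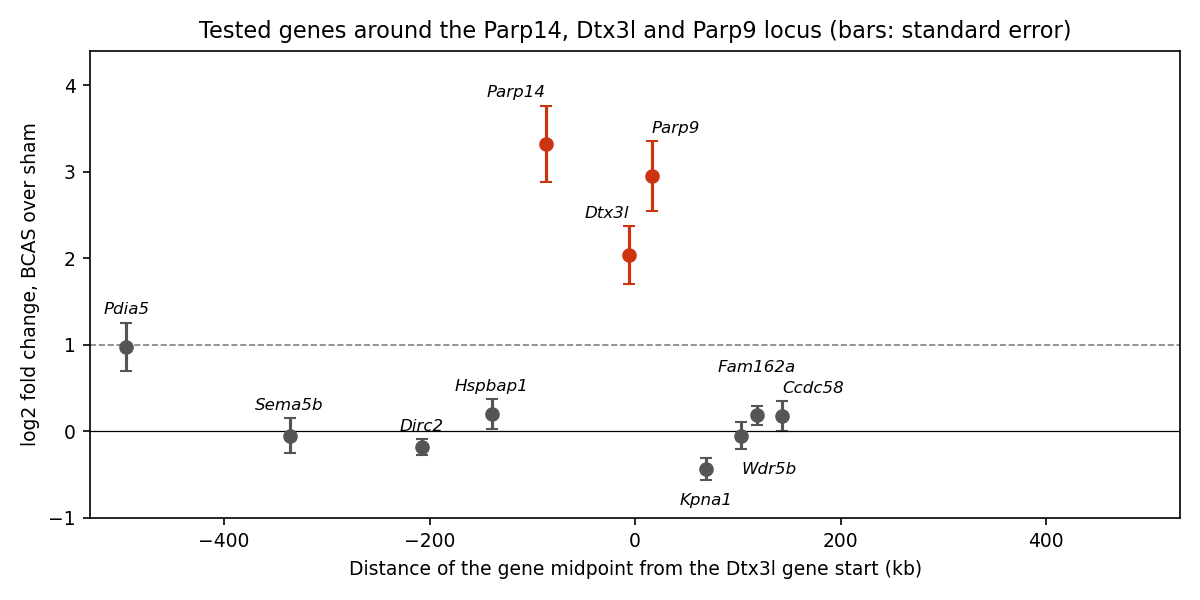
Log2 fold change, BCAS over sham, of the 11 tested genes within 500 kb of the Parp14, Dtx3l and Parp9 locus, against the distance of each gene's midpoint from the Dtx3l gene start in kb. Bars are standard errors, and red marks Parp14, Dtx3l and Parp9, which stand above the dashed threshold of 1 while the other 8 genes lie below it.

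Parp10 (ENSMUSG00000063268.12, chr15:76231174-76243441, minus strand) encodes an enzyme that adds single ADP-ribose units. Its level was 5.11, 4.81, 4.00 and 4.41 CPM in sham and 29.5, 9.22, 18.6 and 14.9 CPM in BCAS libraries. The groups did not overlap, and BCAS 2 was again nearest to sham. The log2 fold change was 1.98 (SE 0.32, edgeR adjusted p = 0.00423). Parp10 shares 205 exon bases, 4.8% of its own, with Plec on the same strand. Parp12 (ENSMUSG00000038507.6, chr6:39086410-39118349, minus strand) encodes a zinc finger enzyme of the same catalytic type with antiviral activity. It was measured at 13.01, 12.04, 15.8 and 12.1 CPM in sham and at 64.9, 26.3, 43.5 and 37.9 CPM in BCAS libraries. No BCAS library reached down to the sham range. The log2 fold change of Parp12 was 1.70 (SE 0.25, edgeR adjusted p = 0.00305).

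Parp11 differed from the other interferon-linked genes. Parp11 (ENSMUSG00000037997.12, chr6:127446840-127494261, plus strand) encodes an enzyme that adds single ADP-ribose units and acts on the type I interferon receptor pathway. Its level was 20.7, 18.2, 22.3 and 19.9 CPM in sham and 26.9, 21.7, 23.1 and 22.7 CPM in BCAS libraries. Sham 3 lay above BCAS 2, so the groups overlapped. The log2 fold change was 0.22 (95% interval -0.02 to 0.46, edgeR adjusted p = 0.135), so an increase above 0.46 lies outside the interval.

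**Figure D3:**
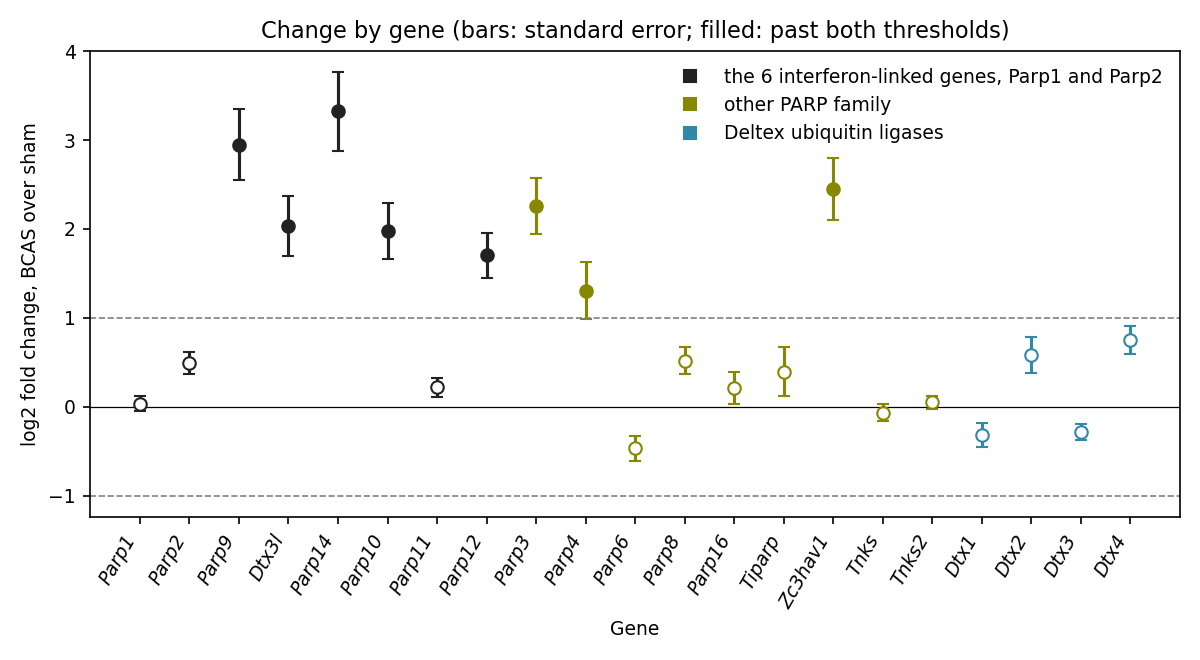
Log2 fold change, BCAS over sham, of the 8 genes (black), 9 further PARP family genes (olive) and 4 Deltex genes (blue), with bars for the standard error and filled points for genes past both thresholds. Filled points are Parp9, Dtx3l, Parp14, Parp10, Parp12, Parp3, Parp4 and Zc3hav1, all above 1, and none lies below -1.

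To compare levels between genes, CPM was divided by exon length in kb. In sham cortex Parp1 was highest, at 14.2 ± 1.13 CPM per kb (SD, n = 4), above every library of any other member. Parp2 (3.83 ± 0.386), Parp12 (3.32 ± 0.438) and Parp11 (2.88 ± 0.245 CPM per kb) followed, and each overlapped the next in this order. Dtx3l (1.21 ± 0.197) and Parp10 (1.07 ± 0.113 CPM per kb) overlapped each other, as did Parp9 (0.746 ± 0.127) and Parp14 (0.593 ± 0.129 CPM per kb). In BCAS cortex Parp1 stood at 14.6 ± 1.07 and Parp12 at 10.8 ± 4.05 CPM per kb, with overlapping libraries. Parp14 (5.93 ± 3.55), Parp9 (5.76 ± 3.32), Parp2 (5.40 ± 0.653), Dtx3l (4.97 ± 2.38), Parp10 (4.22 ± 2.0) and Parp11 (3.36 ± 0.322 CPM per kb) came next, and neighbours in this order overlapped. Parp14 thus moved from the lowest mean of the 8 in sham to the third highest in BCAS cortex. In BCAS 1 (10.5) and BCAS 3 (6.67 CPM per kb) only Parp1 and Parp12 were higher. In BCAS 2 Parp14 (2.24) lay below Parp2 (4.46) and Parp11 (3.09), and in BCAS 4 (4.31) below Parp2 (5.63) and Parp9 (4.79 CPM per kb). The 6 interferon-linked genes made up 34.4% to 36.8% of the summed CPM per kb of the 8 genes in sham libraries. This share was 72.3%, 49.9%, 63.2% and 61.2% in BCAS 1 to 4. The summed level of the 6 was 9.29 to 10.2 CPM per kb in sham and 55.8, 18.9, 35.9 and 29.5 CPM per kb in BCAS 1 to 4. That of Parp1 and Parp2 was 17 to 19.4 in sham and 18.7 to 21.4 CPM per kb in BCAS libraries.

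Each interferon-linked gene was then set against the DNA-repair genes of the same library, as its log2 CPM minus the mean of Parp1 and Parp2. This difference was larger in BCAS than in sham mice by 2.84 for Parp14, 2.49 for Parp9, 1.63 for Dtx3l, 1.57 for Parp10 and 1.37 for Parp12. For each of the 5, exact two-sided permutation gave p = 0.0286, the smallest that 70 arrangements allow, and 0.0343 adjusted over 6 comparisons. These genes already lay apart between the groups in CPM, so this p follows largely from the values above. With any 1 sham library left out, the adjusted p of these 5 rose to 0.0571 or 0.0686. For Parp11 the difference changed by -0.05 (exact permutation p = 0.429). Parp2 is part of the reference and itself rose by 0.50 on the log2 scale, which lowers all 6 differences. The pair of Dtx3l and Parp9 was compared in the same way. Dtx3l exceeded Parp9 by 0.91 ± 0.15 on the log2 CPM scale in sham and by 0.06 ± 0.15 in BCAS mice (SD, n = 4 each). The excess was 1.02, 1.06, 0.84 and 0.74 in Sham 1 to 4 and -0.14, 0.14, 0.20 and 0.05 in BCAS 1 to 4. These groups did not overlap, and the difference of -0.85 had an exact permutation p of 0.0286.

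Microglial markers moved with these genes. All 13 microglial identity markers were called higher, against 11.0% of all tested genes. Their summed level was 426 to 512 CPM in sham and 6100, 1670, 2990 and 3250 CPM in BCAS 1 to 4. BCAS 1 was highest and BCAS 2 lowest, as for the 5 genes called, whereas BCAS 4 exceeded BCAS 3 in the marker sum only. Relative to this sum in the same library, Parp9 changed by 0.04 on the log2 scale (exact permutation p = 0.886) and Parp14 by 0.38 (exact permutation p = 0.143). Relative to the same sum, the log2 change was -0.83 for Dtx3l, -0.88 for Parp10, -1.11 for Parp12, -2.25 for Parp2, -2.53 for Parp11 and -2.71 for Parp1. Each of these 6 had an exact permutation p of 0.0286, or 0.0381 adjusted over 8 comparisons. Blood leukocyte markers moved in the same direction. Their summed level was 4.22 to 8.80 CPM in sham and 160, 12.5, 102 and 29.7 CPM in BCAS 1 to 4, over 17 genes. Of these, 4 passed the filter on low counts, Cd8a and Ccr2 through the BCAS libraries, so no count of calls is given for this list. Cd3e, the T cell receptor subunit gene, had 1 to 3 counts in sham and 139, 5, 67 and 27 counts in BCAS 1 to 4. Of the neutrophil genes, S100a9 had 0 to 6 counts in sham and 92, 7, 98 and 16 in BCAS 1 to 4, S100a8 had 0 to 6 and 43, 5, 69 and 12, and Ly6g was at 0 counts in every library. Summed astrocyte markers were 5230 to 6180 CPM in sham and 6140 to 7150 in BCAS, endothelial markers 306 to 397 and 372 to 546, and oligodendrocyte markers 2210 to 3410 and 2980 to 4350 CPM. At an adjusted p under 0.05 (edgeR), 6 of 9 astrocyte markers and 2 of 9 endothelial markers were higher and none lower, against 19.2% and 12.8% of all tested genes, so the endothelial share is near the background. No oligodendrocyte marker passed, with 1 of 7 at an unadjusted p under 0.05 (edgeR). Striatal markers summed to 223 to 390 CPM in sham and 295 to 625 in BCAS libraries, and choroid plexus markers to 16.2 to 792 and 33.7 to 73.3 CPM. The part of these markers in the changes of the PARP genes and Dtx3l was not tested.

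**Figure D4:**
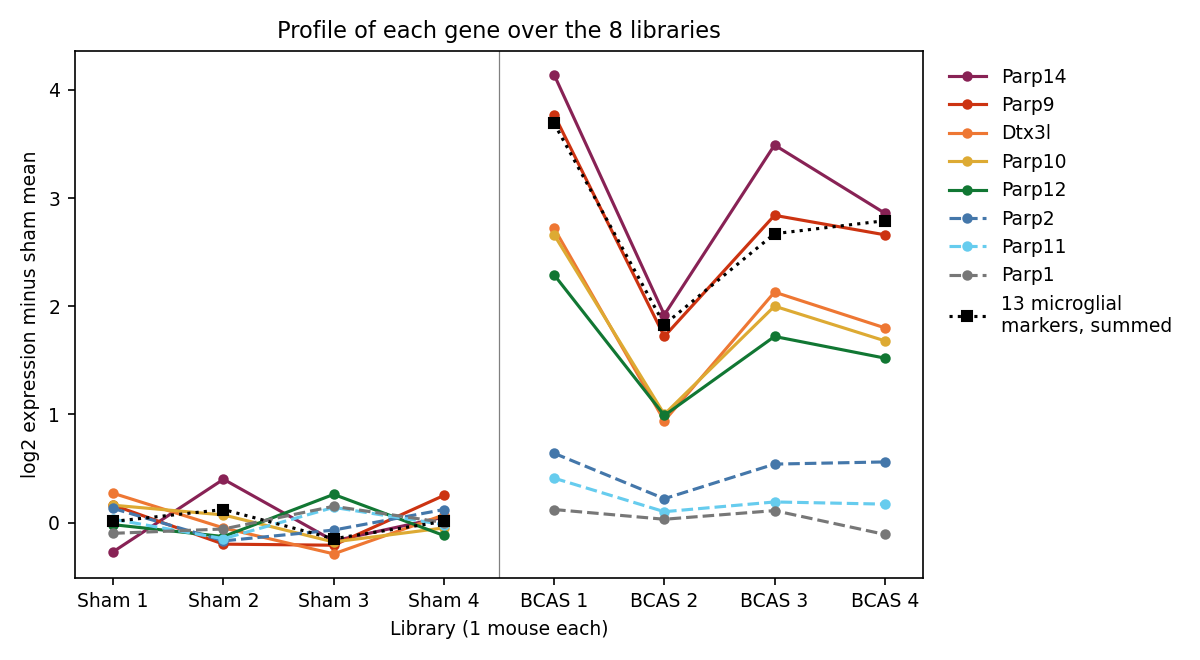
Log2 expression minus the sham mean in each of the 8 libraries for the 8 genes (lines) and the summed 13 microglial markers (black squares, dotted). Parp14 lies above the marker sum in all 4 BCAS libraries and Parp9 above it in 2 of the 4, whereas Dtx3l, Parp10 and Parp12 lie below it and Parp2, Parp11 and Parp1 lie closest to 0.

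Genes with the most similar profile were named for each interferon-linked gene by the root mean square difference in log2 CPM, relative to sham, over the 8 libraries and 12428 candidate genes. For Parp9 they were Tcirg1 (0.136), Tifab (0.150) and Itgb5 (0.161), and for Parp14 Cmklr1 (0.142), Clec5a (0.151) and Sh3bp2 (0.153). For Dtx3l they were Lhfpl2 (0.0634), Rcsd1 (0.0828) and Axl (0.0834), and for Parp10 Grap (0.0715), Lhfpl2 (0.0753) and Tpcn2 (0.0828). Parp12 was nearest to Scpep1 (0.106), Pla2g15 (0.120) and Sowahc (0.122). Parp11 was nearest to Prpf39 (0.0376), Odf2l (0.0441) and Sec24a (0.0446), none of which passed the test. Among the members, Dtx3l and Parp10 had the closest profiles, 0.107 apart, and Parp9 and Parp14 were 0.389 apart. The neighbours Parp9 and Dtx3l were 0.615 apart. These values are descriptions over libraries that differed in depth and in summed cell type markers, which act on all genes of a library.

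The rest of the PARP family was examined next. Of 9 further PARP genes, 3 were called higher and none lower, against 11.0% and 1.28% of all tested genes, with a median log2 fold change of 0.40 against -0.01 over all tested genes. Zc3hav1, which encodes the antiviral zinc finger protein without ADP-ribosyltransferase activity, rose by 2.45 on the log2 scale (SE 0.35, edgeR adjusted p = 0.00281), from 8.29 ± 1.005 to 45.1 ± 23.5 CPM (SD, n = 4 each). Parp3, a further DNA-break-activated enzyme, rose by 2.26 (SE 0.32, edgeR adjusted p = 0.00274), from 4.33 ± 0.965 to 20.7 ± 8.45 CPM. Parp4, the PARP of vault particles, rose by 1.31 (SE 0.32, edgeR adjusted p = 0.0186), although its groups overlapped, and it was not called without Sham 1 or without Sham 2. Parp8 rose by 0.52 and Parp6 fell by 0.47 on the log2 scale (edgeR adjusted p = 0.0309 and 0.0358), both below the fold threshold. Parp16, Tiparp and the tankyrase genes Tnks and Tnks2 did not pass the test. Tiparp had 631 counts in Sham 3 and 249 to 263 in the other sham libraries.

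Of the 4 Deltex genes other than Dtx3l, none was called by edgeR, DESeq2 or limma, and with 11.0% and 1.28% of all genes called higher and lower this is near the background. All 4 had an unadjusted p under 0.05 (edgeR). At an adjusted p under 0.05 (edgeR), 1 was higher and 1 lower, against 19.2% and 12.8% of all tested genes. Dtx4 rose by 0.75 on the log2 scale (SE 0.16, edgeR adjusted p = 0.0100) and Dtx3 fell by 0.28 (SE 0.09, edgeR adjusted p = 0.0441). Dtx1 and Dtx2 did not pass the test, with log2 fold changes of -0.32 and 0.58 (edgeR adjusted p = 0.0933 and 0.0552).

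Enzymes that remove ADP-ribose or bind it were compared next. Of 9 genes, 8 were tested, with a median log2 fold change of -0.01, and 1 of the 8 was called higher, a share near the 11.0% of all tested genes. This was Enpp1, a phosphodiesterase of the cell surface, at 1.98 (SE 0.46, edgeR adjusted p = 0.0156), with overlapping groups. It was not called by limma-voom or without Sham 2. Adprh, which removes ADP-ribose from arginine, fell by 0.29 (SE 0.08, edgeR adjusted p = 0.0281). Macrod2 and Oard1, the macrodomain hydrolase genes, had log2 fold changes of -0.52 and 0.12 and did not pass the test. Of 16 partners of PARP1 and PARP2 in single-strand break repair, none was called by edgeR, DESeq2 or limma, against 11.0% higher and 1.28% lower over all genes, and the median log2 fold change was 0.08. At an unadjusted p under 0.05 (edgeR), 5 of the 16 passed. At an adjusted p under 0.05 (edgeR), 2 were higher and 1 lower, against 19.2% and 12.8% of all tested genes, so neither share exceeds the background. Chd1l, a remodeller drawn to ADP-ribose chains, and Pcna, the sliding clamp of DNA synthesis, each rose by 0.38 on the log2 scale (edgeR adjusted p = 0.0391 and 0.0410). Hpf1, the factor that directs PARP1 and PARP2 to serine residues, fell by 0.27 (edgeR adjusted p = 0.0259), and Fen1 had a log2 fold change of -0.59 (edgeR adjusted p = 0.141).

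NAD is the substrate of all active PARPs. Of 15 genes of NAD metabolism, 13 were tested, with a median log2 fold change of 0.30, and 2, Naprt and Cd38, were called higher, against 11.0% of all tested genes. The count was 1 without BCAS 3 or by limma-voom, 4 with no filter and 5 without BCAS 2. Naprt, which makes NAD from nicotinic acid and was named after its values were seen, rose by 1.33 (SE 0.26, edgeR adjusted p = 0.00803), from 4.86 ± 1.03 to 12.2 ± 3.71 CPM (SD, n = 4 each), with groups that did not overlap. Cd38, an ectoenzyme that consumes NAD, rose by 2.08 (SE 0.54, edgeR adjusted p = 0.0214), from 4.41 ± 0.314 to 18.6 ± 13.4 CPM (SD, n = 4 each). Its groups overlapped, and it was not called without BCAS 3, without any 1 sham library or by limma-voom. The biosynthetic enzyme gene Qprt had a log2 fold change of 1.37, the neuronal Nmnat2 of -0.61 and the NAD hydrolase gene Sarm1 of -0.43, and none of these passed the test (edgeR adjusted p = 0.0512, 0.0569 and 0.0965). Qprt was called by DESeq2, with library size alone, and without BCAS 2 or BCAS 4.

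The upstream pathway was read from 19 interferon ligand, receptor and signalling genes. Of these, 17 were tested, with a median log2 fold change of 1.74, and 11 were called higher and none lower, against 11.0% and 1.28% of all tested genes. Ifnb1 had 0 counts in every library, and Ifng had 0 to 1 counts in sham and 0 to 4 counts in BCAS libraries. Irf7, a transcription factor that amplifies type I interferon, rose by 4.10 on the log2 scale (SE 0.58, edgeR adjusted p = 0.00280), and the myeloid factor Irf8 by 3.96 (SE 0.45, edgeR adjusted p = 0.00176). The receptor kinase genes Jak1 and Jak2 had log2 fold changes of 0.02 and 0.35 and did not pass the test. Of 31 other interferon-stimulated genes, 28 were called higher, against 11.0% of all tested genes, but 7 of these had a sham library under 10 counts. Among the 24 genes with at least 10 counts in every library, 21 were called and the median log2 fold change was 2.74. The exceptions were Adar, Herc6 and Cmpk2, the last named after its values were seen. Oas3 had 0, 0, 2 and 0 counts in sham and 640, 52, 185 and 115 in BCAS 1 to 4, and Mx1 stood at 0.254 ± 0.175 and 13.4 ± 9.09 CPM (SD, n = 4 each).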

How the data were processed

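RNA-seq was made from the right cerebral cortex of 4 sham and 4 BCAS mice, grouped by the labels. Per the labels and the file headers, the authors trimmed read pairs with Trim Galore, aligned them to mm10 with HISAT2, and deposited raw exon counts per gene from featureCounts (2.0.1 in the file headers, 1.6.3 in the labels), with GENCODE vM20 genes and no strand option. Of 54752 gene IDs, 54723 matched a symbol. The counts were tested with edgeR 4.0.16 in R 4.3.3, with TMM scaling, filterByExpr (minimum count 10, minimum total 15) and the quasi-likelihood F-test without covariates, and adjusted by Benjamini-Hochberg over 17136 genes. CPM is scaled by TMM. Within-library log2 values used a prior count of 2, and their group means were compared by exact two-sided permutation.

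Named genes are the 8 members, the other PARP and Deltex genes, the 2 highest and the 2 lowest of each other pathway list, the 3 most similar genes (mean of at least 100 counts) and tested neighbours. Genes outside this rule (Naprt, Cmpk2, Pdia5, Ifnb1, Ifng and the leukocyte genes Cd3e, Cd8a, Ccr2, S100a8, S100a9 and Ly6g) were named after their values were seen. The members and lists were chosen with earlier results of these data known. Alternatives were DESeq2 1.42.0, limma 3.58.1 (voom, or log2(CPM + 1)), other scalings and filters, a replicate block and leaving out each library. The procedures were tested on simulated data. Figures used matplotlib 3.10.9 in Python 3.11.15.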

Additional observations from a re-analysis of the deposited data

Results flagged for a closer look

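In 5 of 62 group values, 1 sample lay far from the others of its group by Dixon's criterion for 4 samples, which chance passes in about 1 of 20 groups. The log2 difference of Parp2 minus the summed microglial markers had a low sham value of -5.38, with the next at -5.02. The difference of Parp10 minus the same sum had a high sham value of -6.54, with the next at -6.73. The summed choroid plexus markers reached 792 CPM in Sham 3, with the next sham library at 52.3 CPM. The summed oligodendrocyte markers were lowest in Sham 3, at 2210 CPM, with the next at 3310 CPM. The summed striatal markers reached 625 CPM in BCAS 4, with the next BCAS library at 312 CPM.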

How the results depend on the processing

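Parp9, Dtx3l, Parp14, Parp10 and Parp12 were called higher under all 17 alternative fits, and Parp11 under none. Leaving out each library gave log2 fold changes of 2.52 to 3.22 for Parp9, 1.72 to 2.29 for Dtx3l, 2.91 to 3.61 for Parp14, 1.65 to 2.21 for Parp10 and 1.45 to 1.89 for Parp12. Parp1 ranged from -0.0037 (without Sham 1) to 0.085, and its interval spans 0. Counts over all genes moved more than the members: without each library, 1644 to 2967 genes were called, 1532 to 2408 higher and 86 to 559 lower. Without the threshold on the fold, 5490 genes passed, of which 3291 were higher and 2199 lower. The test by limma on log2(CPM + 1) left 145 genes called lower. With the replicate number as a block, the lists lost the calls of Parp4, Cd38 and Socs1 and gained that of Qprt. These list counts and the member counts under each fit were chosen after seeing the data.

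The differences from Parp1 and Parp2 in the same library ranged, without each library, from 2.18 to 2.78 for Parp9, 1.398 to 1.91 for Dtx3l, 2.53 to 3.19 for Parp14, 1.34 to 1.81 for Parp10 and 1.19 to 1.53 for Parp12. Relative to the microglial sum and without each library, Parp9 ranged from -0.07 to 0.12 and was below 0 without Sham 2 (-0.068) and without BCAS 3 (-0.017). Over all 10 alternatives, which include a marker list without its most abundant markers, Parp9 ranged from -0.07 to 0.23 and Parp14 from 0.23 to 0.57. The lowest adjusted exact permutation p was 0.171 for Parp9 and 0.098 for Parp14. With the replicate number as a block, the exact test over 4 pairs cannot go below p = 0.125. The blocked differences were 2.49 for Parp9, 1.64 for Dtx3l, 2.84 for Parp14, 1.57 for Parp10 and 1.37 for Parp12 (adjusted exact p = 0.150). Relative to the microglial sum the blocked values were -2.71 for Parp1, -2.25 for Parp2, -0.83 for Dtx3l, -0.88 for Parp10, -2.53 for Parp11 and -1.11 for Parp12 (adjusted exact p = 0.167). For Dtx3l minus Parp9 the block gave -0.85 (exact p = 0.125). The block called 1809 genes and changed no call of the 8 genes. Deviations of same-numbered libraries had correlations of -0.0455, -0.103, -0.00821 and 0.00126. No sham library was closest to the BCAS library of its own number. The labels give only a shared number, and 4 pairs are too few to tell whether it stands for a pairing.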
